A study of Mus musculus with 10 samples.

Results

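The genes described here are 33 genes of the folding machinery of the endoplasmic reticulum (ER) and of its stress response, among 54446 gene identifiers counted in the tumours of TH-MYCN mice. They were chosen by name from a list of ER chaperones and unfolded protein response genes, and 1 of the 34 names, Vimp, is a second name of Selenos. All 33 were counted, and all 33 passed the filter on low counts that left 14956 genes for testing. By role, 10 are lumenal chaperones and their partners, 6 are enzymes of disulfide bond formation, 4 are the stress sensors and Xbp1, 9 act in ER-associated degradation and 4 belong to the protein-conducting channel.

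Proteins that are secreted or placed in membranes fold in the ER, where the chaperone BiP (Hspa5), lectin chaperones and protein disulfide isomerases assist them. When unfolded proteins accumulate, the membrane sensors IRE1 (Ern1), PERK (Eif2ak3) and ATF6 start the unfolded protein response. IRE1 splices the Xbp1 message, PERK slows translation and raises the factor ATF4, and ATF6 is cut to release a transcription factor. XBP1 and ATF6 act on genes for chaperones and for ER-associated degradation, which returns misfolded proteins to the cytosol for destruction.

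Tumours of the TH-MYCN strain arise in the sympathetic nervous system from a human MYCN transgene that a tyrosine hydroxylase promoter drives, and every group carries it. The groups were tumours of untreated mice (n = 3), tumours after 24 h of a combination treatment (n = 3) and tumours after 5 days of it (n = 4). The drugs were MLN8237 (alisertib), which inhibits the Aurora-A kinase of mitosis, and AZD6738 (ceralasertib), which inhibits ATR, a kinase that answers replication stress. Sample titles name a combination, but the series design writes "or" between the drugs. The sources used here do not give dose, schedule, age, sex or whether each library was a different mouse, so a p-value reflects only how these libraries vary, which may be technical. No group with 1 drug alone enters the comparisons.

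Many genes of this response carry the ER stress response element (ERSE), a CCAAT box and the letters CCACG set 9 bases apart, in their promoters. RefSeq windows (build GRCm38.p6) of 300 bases, from 250 before to 50 after the gene start, were found for 27 of the 33 genes. There was no entry for Hyou1, Manf, Atf6, Derl1, Sec61a1 or Ssr2. A gene was counted if any of its windows held the match. On either strand, CCAAT followed by any 9 bases and CCACG stood in 9 of the 27 genes (33.3%), against 37 of all 27025 genes (0.137%). The shorter ERSE-II, ATTGG followed by any 1 base and CCACG, stood in 2 of 27 (7.41%), against 12 of 27025 genes (0.0444%). The core letters TGACGTGG of another element, the UPRE, stood in 0 of 27, against 0.714% of all genes. No gene among the 27 held both ERSE and ERSE-II. A match describes the letters of the window and does not show that a factor binds.

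The matches are printed because both the gene with the lowest fitted change of the 33 at 24 h (Dnajc3) and the gene nearest to 0 (Herpud1) carry one. Each line is read 5′ to 3′ along the strand named, with 5 flanking bases on each side and the fixed letters of the element in capitals.
Hspa5, chr2:34772020-34772048, plus strand: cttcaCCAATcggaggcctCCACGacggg
Hsp90b1, chr10:86705633-86705661, minus strand: caagcCCAATcgcaaggagCCACGcttcg
Hsp90b1, chr10:86705528-86705556, plus strand: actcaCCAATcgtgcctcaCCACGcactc
Calr, chr8:84847070-84847098, plus strand: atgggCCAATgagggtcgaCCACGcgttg
Canx, chr11:50325795-50325823, minus strand: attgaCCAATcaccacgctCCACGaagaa
Dnajc3, chr14:118937822-118937850, plus strand: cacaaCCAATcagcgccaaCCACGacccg
Pdia6, chr12:17266486-17266514, plus strand: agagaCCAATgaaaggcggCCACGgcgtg
Creld2, chr15:88819515-88819543, minus strand: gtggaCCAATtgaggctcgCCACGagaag
Syvn1, chr19:6046527-6046555, plus strand: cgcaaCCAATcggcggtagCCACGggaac
Derl3, chr10:75893237-75893265, minus strand: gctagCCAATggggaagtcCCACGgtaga
Herpud1 (ERSE-II), chr8:94386372-94386392, plus strand: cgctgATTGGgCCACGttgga
Dnajb11 (ERSE-II), chr16:22857847-22857867, plus strand: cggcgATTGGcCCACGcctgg
Hsp90b1 was the one gene of these with 2 matches, and its pair point in opposite directions. By the RefSeq starts, the first base of the match in the gene's direction lay 65 bases before Hspa5, 44 before Syvn1 and 162 before Calr. The match of Dnajb11 lay inside the transcript. In the GENCODE annotation Hspa5 starts further upstream, at 34771970, so the Hspa5 match lies inside that span. To show an element in its setting, the 250 bases before the start of Creld2 (an ER-resident isomerase-like protein, chr15:88819396-88819645, plus strand) read, with the element on the opposite strand and so in reverse complement:
Creld2: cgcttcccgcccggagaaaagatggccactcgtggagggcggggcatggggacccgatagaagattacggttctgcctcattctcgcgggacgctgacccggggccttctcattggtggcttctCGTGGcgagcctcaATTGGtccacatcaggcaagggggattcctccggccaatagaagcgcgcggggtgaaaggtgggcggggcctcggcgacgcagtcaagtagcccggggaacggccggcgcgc

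Libraries held 5576926 to 5696436 counts, and levels are given as CPM, the count of a gene scaled to a common library total. One library stood apart. In 5-day library 1, 10 sympathetic markers summed to 389 CPM, against 1030 to 1560 CPM in the other 9, while 12 macrophage markers summed to 13100 CPM, against 552 to 1540 CPM. Its 10 fibroblast markers summed to 19300 CPM, against 419 to 3130 CPM. The biological coefficient of variation was 40.8% over all libraries and 18.9% without this one. The comparisons are therefore given with and without it. Leaving it out shifted no 24 h log2 fold change of the 33 genes by more than 0.01, but the standard errors were smaller for each of them but Derl3. In bulk tumour RNA, fewer cells of a type and less RNA per cell cannot be told apart.

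At 24 h, most of the 33 genes had lower mean levels than in untreated tumours, and none passed the test. The summed level of the 33 genes was 4480, 5710 and 5840 CPM in untreated libraries 1 to 3, and 4260, 4340 and 3900 CPM at 24 h. The mean at 24 h was 78.0% of the untreated mean. Every 24 h library lay below every untreated library, with untreated library 1 just above the 24 h range. The fitted change was below 0 for 28 of 33 genes and above 0 for 5 (background 51.5% and 48.5% of all genes tested), with a median log2 fold change of -0.26, against -0.01 over all genes tested. In the quasi-likelihood test of edgeR (Benjamini-Hochberg adjustment), 0 of 33 genes were called at 0.05, as were 0 of 14956 genes (0.0%), and every adjusted p of the 33 was 1.0. At an unadjusted p under 0.05, 4 of the 33 were lower (background 0.615%) and 0 were higher (1.14%), and DESeq2 called 0 genes. Without 5-day library 1 in the fit the median was -0.25, the same 28 genes were below 0 and 5 above (background 50.5% and 49.5%), and the smallest adjusted p was 0.24. In that fit 18 of 33 had an unadjusted p under 0.05 in the lower direction (background 3.54%) and 0 in the higher direction (4.56%). Of all genes, 2 were called (0.0136%), neither among the 33.

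Counted by library and without a model, 14 of 33 genes (42.4%) had every 24 h library below every untreated library, against 6.69% of all genes tested, or 6.74% of those tested without 5-day library 1. In the opposite direction the count was 1 gene, Edem2, against 7.11%. The 14 were Hyou1, Dnajc3, Sdf2l1, Manf, Pdia3, Pdia6, P4hb, Creld2, Xbp1, Edem1, Derl1, Derl2, Selenos and Ssr1. All of the roles are represented in this list, with 4 of 10 chaperones, 4 of 6 disulfide enzymes, Xbp1 alone among the 4 genes of the sensor group, 4 of 9 degradation genes and 1 of 4 channel genes.

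**Figure D1:**
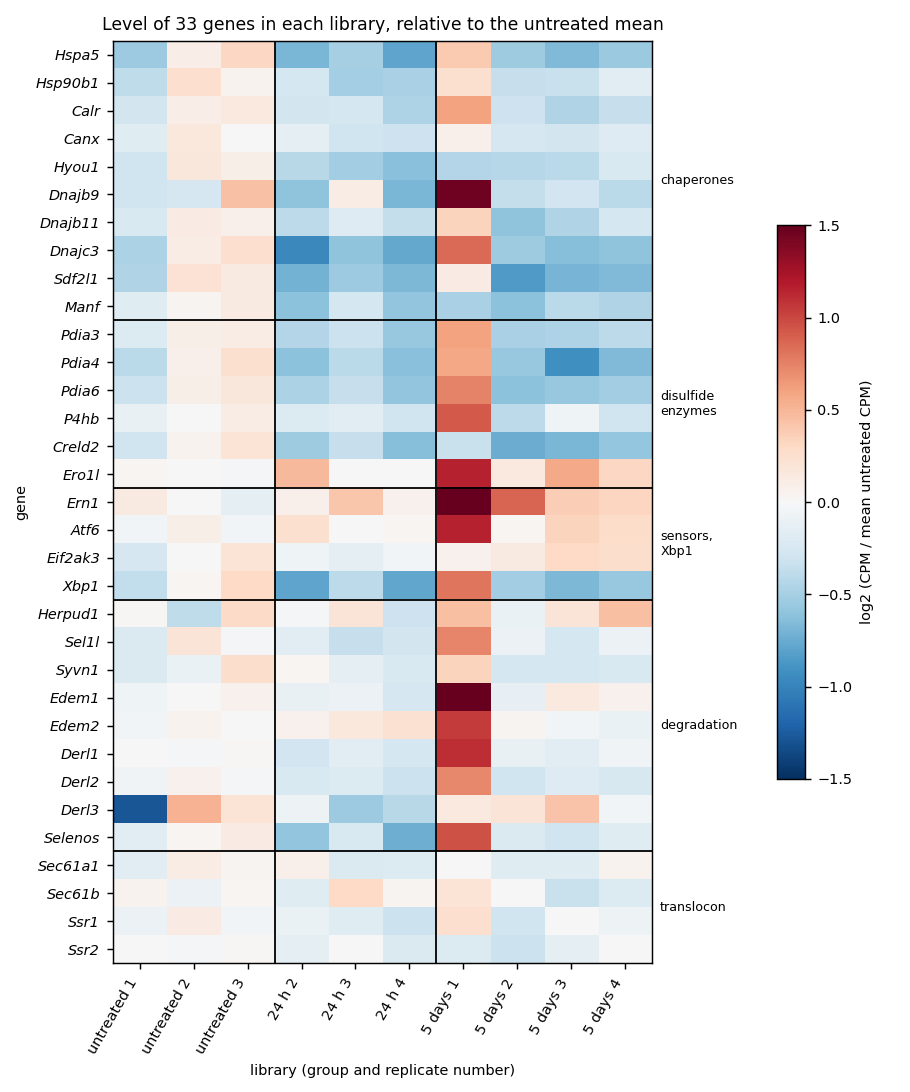
Level of each of the 33 genes in each library as log2 of its CPM over the untreated mean (colour, blue lower and red higher, limited to 1.5 on either side), with genes in rows by role and libraries in columns by group and replicate number. Most chaperone and disulfide enzyme rows are blue in the 24 h libraries and in 5-day libraries 2 to 4, untreated library 1 is blue for many of them, and 5-day library 1 is red for most genes.

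After 5 days the same genes gave a mixed picture that turned on 5-day library 1. Their summed level was 7460 CPM in that library and 4140, 4200 and 4390 CPM in libraries 2 to 4, so the other 3 lay below all untreated libraries. With all libraries the fitted change was below 0 for 19 of 33 genes and above 0 for 14 (background 49.4% and 50.6%), with a median of -0.07 against 0.01 over all genes. By edgeR 0 of 33 were called, as were 0 of 14956 (0.0%), and the smallest adjusted p was 0.538. DESeq2 called 21 genes and none of the 33. At an unadjusted p under 0.05, Hyou1, Manf and Creld2 were lower (background 2.03%) and Ero1l and Ern1 were higher (6.38%). Without 5-day library 1, 26 of 33 were below 0 and 7 above (background 50.5% and 49.5%), the median was -0.24 and the smallest adjusted p was 0.243, with 0 of all genes called. In that fit 15 of 33 had an unadjusted p under 0.05 in the lower direction (background 3.86%) and 2, again Ero1l and Ern1, in the higher direction (4.65%).

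By library, 2 of 33 genes, Manf and Creld2, had all 4 of the 5-day libraries below every untreated library (background 4.89%), and 2, Ero1l and Ern1, had all 4 above (4.01%). Without library 1 the counts were 15 of 33 below (background 7.6%) and the same 2 above (6.61%). The 24 h and 5-day comparisons share the untreated libraries, so their values are set side by side and are not independent of each other.

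**Figure D2:**
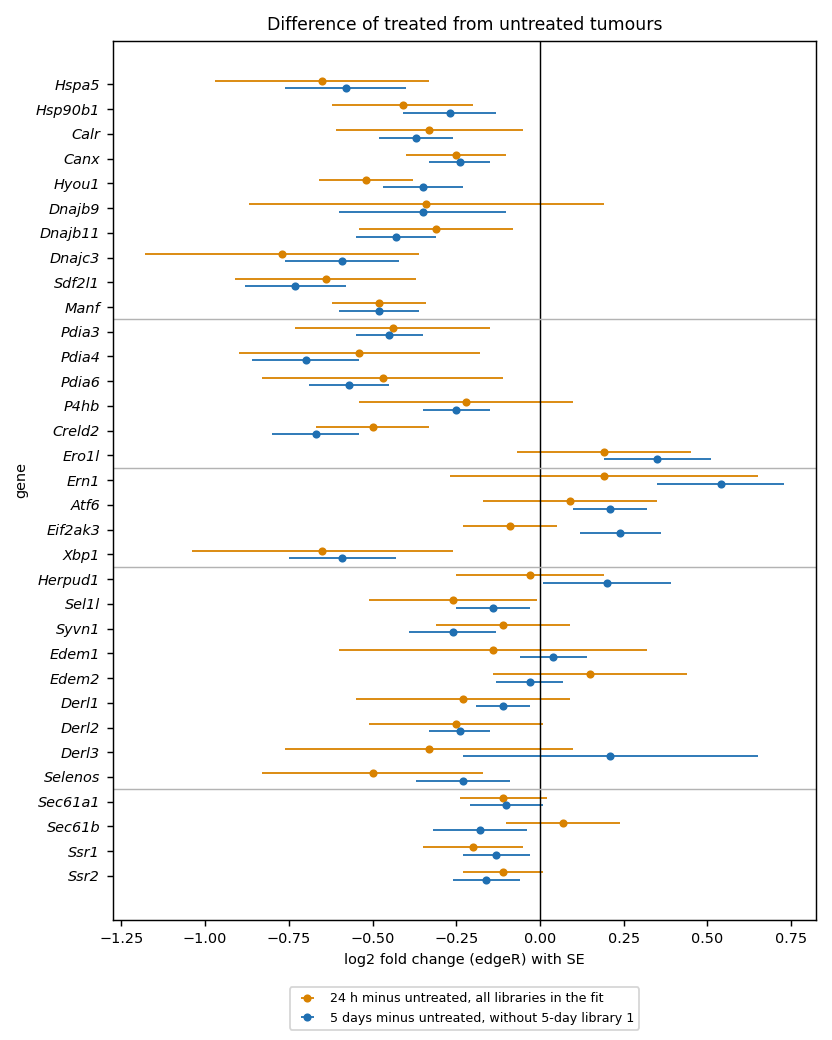
Log2 fold change against untreated tumours (points) with its standard error (bars) from edgeR for each of the 33 genes, at 24 h with all libraries in the fit (orange) and at 5 days without 5-day library 1 (blue), with lines between roles. Chaperones and most disulfide enzymes lie left of 0 at both times, Ero1l and Ern1 lie right of 0, and the channel genes lie close to 0.

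All 10 chaperones and partners had lower means at 24 h, with a median log2 fold change of -0.45. Their summed level was 2250, 3110 and 3150 CPM in untreated libraries 1 to 3 and 2150, 2170 and 1950 CPM at 24 h, or 73.6% of the untreated mean. At 5 days it was 3490 CPM in library 1 and 2070 to 2230 CPM in the others. Per kilobase of exon, Calr (202 CPM per kb) and Hspa5 (167 CPM per kb) had the highest untreated levels of the 33 genes, and Dnajb9 (8.9 CPM per kb) the lowest of the chaperones.

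Hspa5 encodes BiP, the chaperone that also holds the stress sensors inactive. It measured 485, 754 and 879 CPM in untreated libraries 1 to 3, 440, 499 and 407 CPM in 24 h libraries 2 to 4, and 925, 488, 445 and 481 CPM in 5-day libraries 1 to 4. Untreated library 1 lay among the 24 h libraries, so the groups overlapped. The log2 fold change at 24 h was -0.65 ± 0.32 (SE), or 1.57-fold lower, with an unadjusted p of 0.0689. Without 5-day library 1 the standard error was 0.18 and the unadjusted p 0.00536, with an adjusted p of 0.402. At 5 days it was -0.27 ± 0.29 with all libraries and -0.58 ± 0.18 without library 1.

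Hyou1 and Manf, both partners of BiP, had the smallest unadjusted p-values of the 33 genes at 24 h. Hyou1, a nucleotide exchange factor for BiP on chromosome 9 (44379490 to 44392369, mm10), measured 204, 281 and 265 CPM untreated, 187, 174 and 162 CPM at 24 h and 185, 186, 189 and 214 CPM at 5 days. Its 24 h libraries did not overlap the untreated ones, while 5-day library 4 did. Its log2 fold change was -0.52 ± 0.14 at 24 h (unadjusted p 0.00543) and -0.37 ± 0.13 at 5 days (unadjusted p 0.0214), or -0.35 ± 0.12 without 5-day library 1. For Hyou1, 5-day library 1 was the lowest of its group.

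Manf encodes an ER-resident protein that binds BiP and can be secreted, from chromosome 9 (106838312 to 106891979, mm10). It measured 129, 150 and 160 CPM untreated, 95.6, 122 and 96.9 CPM at 24 h, and 104, 95.6, 110 and 107 CPM at 5 days. Neither treated group overlapped the untreated one, 5-day library 1 included. For Manf the log2 fold change was -0.48 ± 0.14 at 24 h (unadjusted p 0.00671) and -0.49 ± 0.13 at 5 days (unadjusted p 0.00393, adjusted p 0.538), or -0.48 ± 0.12 without 5-day library 1. DESeq2's adjusted p for Manf at 5 days, 0.105, was the smallest of any of the 33 genes under any setting tried. Exons of Manf share 4.14% of their bases with Dcaf1 on the opposite strand, and the sources used here do not say whether the counting used strand.

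Sdf2l1, a partner of BiP's J proteins on chromosome 16 (17130138 to 17132383, mm10), measured 43.1, 68.4 and 64.6 CPM untreated and 35.9, 40.3 and 36.9 CPM at 24 h. At 5 days it measured 64.1 CPM in library 1 and 32.7, 36.1 and 37.1 CPM in libraries 2 to 4. The 24 h libraries were all below the untreated ones, as were 5-day libraries 2 to 4. For Sdf2l1 the log2 fold change was -0.64 ± 0.27 at 24 h (unadjusted p 0.0432), and at 5 days -0.47 ± 0.25 with all libraries and -0.73 ± 0.15 without library 1 (unadjusted p 0.000607, adjusted p 0.243).

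Hsp90b1, the ER paralog of the cytosolic chaperone HSP90, measured 259, 401 and 349 CPM untreated, 281, 236 and 241 CPM at 24 h and 398, 266, 268 and 303 CPM at 5 days. The groups overlapped at both times: untreated library 1 lay inside the 24 h range, and 5-day library 1 lay above untreated library 3. Calr, a lectin chaperone of the lumen, measured 479, 621 and 645 CPM untreated, 480, 482 and 422 CPM at 24 h and 882, 470, 425 and 456 CPM at 5 days. For Calr, 5-day libraries 2 to 4 lay below every untreated library, and library 1 lay above every other library. Dnajb9, a J protein that serves BiP, was low throughout: 18.4, 19.0 and 30.7 CPM untreated, 15, 24.6 and 14.1 CPM at 24 h and 62.2, 17.7, 18.6 and 17.1 CPM at 5 days. The Dnajb9 groups overlapped at both times, and its 5-day log2 fold change of 0.34 ± 0.50 became -0.35 ± 0.25 without library 1.

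Of the other 3 chaperones, Dnajc3, an inhibitory J protein of the lumen, had the lowest fitted change of the 33 genes at 24 h (-0.77 ± 0.41, unadjusted p 0.0899, or -0.77 ± 0.17 and 0.000864 without 5-day library 1 in the fit), with means of 57.3 ± 7.2 CPM (SD) at 24 h and 97.9 ± 24.4 CPM untreated. Its 24 h libraries were all below the untreated ones. Dnajb11, another J protein of the lumen, had means of 75.7 and 93.9 CPM. The membrane lectin chaperone Canx had means of 455 and 543 CPM, and the 24 h range of neither was clear of the untreated range.

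**Figure D3:**
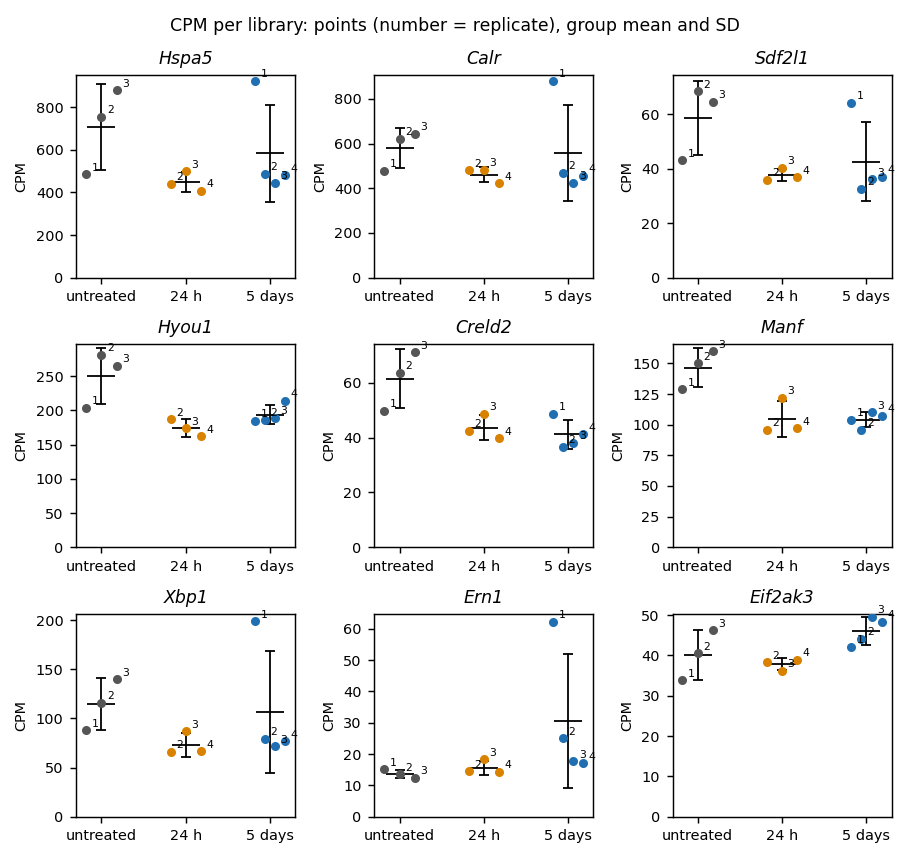
CPM per library (points, numbered by replicate) with group mean (horizontal line) and SD (bars) for 9 of the 33 genes, in untreated tumours (grey), after 24 h (orange) and after 5 days (blue), on axes that start at 0. For Hyou1, Creld2 and Manf the 5-day libraries lie together and low, while for Hspa5, Calr, Sdf2l1, Xbp1 and Ern1 the library numbered 1 lies far above the other 3 of its group.

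Among the 6 disulfide enzymes, 5 had lower means at 24 h and Ero1l did not. Their summed level was 1070, 1290 and 1360 CPM in untreated libraries 1 to 3 and 965, 1020 and 891 CPM at 24 h, or 77.4% of the untreated mean. It was 2030 CPM in 5-day library 1 and 887 to 963 CPM in 5-day libraries 2 to 4. The group median was -0.45 at 24 h and -0.51 at 5 days without library 1, against -0.11 with it.

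Creld2 measured 49.9, 63.7 and 71.1 CPM untreated, 42.6, 48.6 and 39.7 CPM at 24 h, and 48.7, 36.7, 38.2 and 41.2 CPM at 5 days. All 7 treated libraries were below all 3 untreated ones. The log2 fold change was -0.50 ± 0.17 at 24 h (unadjusted p 0.0165) and -0.58 ± 0.16 at 5 days (unadjusted p 0.00486, adjusted p 0.538). Its promoter is the longer stretch printed above. Without 5-day library 1 the 5-day value was -0.67 ± 0.13, with the smallest unadjusted p of the 33 genes in that fit (0.000383, adjusted p 0.243).

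Pdia4, a disulfide isomerase, measured 104, 146 and 163 CPM untreated, 89.9, 104 and 89.4 CPM at 24 h and 206, 93.2, 73.1 and 87.4 CPM at 5 days. Untreated library 1 and 24 h library 3 were nearly equal for it. Ero1l, the oxidase that recharges the isomerases, measured 30.3, 30.0 and 29.1 CPM untreated, 41.9, 29.9 and 30.0 CPM at 24 h and 66.3, 32.9, 44.2 and 37.1 CPM at 5 days. Its untreated libraries were close together, 24 h library 2 stood above them, and all 4 of the 5-day libraries did. The Ero1l log2 fold change at 5 days was 0.60 ± 0.25 (unadjusted p 0.0368, adjusted p 0.538), and 0.35 ± 0.16 without library 1. The isomerases Pdia3, Pdia6 and P4hb had 24 h means of 318, 158 and 312 CPM against untreated means of 430, 219 and 363 CPM, with no overlap between the groups for any of them.

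Of the 3 sensors, Ern1 and Atf6 had higher means at 24 h and Eif2ak3 a slightly lower one, and the difference from the chaperones was not tested. Ern1, which encodes IRE1 alpha, measured 15.1, 13.6 and 12.5 CPM untreated, 14.5, 18.3 and 14.3 CPM at 24 h and 62.2, 25, 17.7 and 17.1 CPM at 5 days. All 4 of the 5-day libraries were above all untreated ones, by far the most in library 1. Its log2 fold change at 5 days was 1.15 ± 0.44 (2.21-fold, unadjusted p 0.0292, adjusted p 0.538) with all libraries and 0.54 ± 0.19 (1.45-fold, unadjusted p 0.0184, adjusted p 0.496) without library 1. Atf6 measured 50.8, 55.7 and 50.9 CPM untreated, 61.8, 52.6 and 53.3 CPM at 24 h and 117, 53.4, 65.9 and 63.3 CPM at 5 days. The Atf6 groups overlapped at both times. Eif2ak3, which encodes PERK, measured 33.8, 40.5 and 46.2 CPM untreated, 38.3, 36.2 and 39.0 CPM at 24 h and 42.1, 44.1, 49.6 and 48.3 CPM at 5 days. For Eif2ak3 the 24 h libraries lay inside the untreated range, and 5-day library 1 was the lowest of its group.

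Xbp1, the transcription factor that IRE1 activates by splicing, went with the chaperones. It measured 88.1, 116 and 140 CPM untreated, 65.9, 86.8 and 66.6 CPM at 24 h and 199, 79.1, 71.7 and 76.8 CPM at 5 days. The 24 h libraries were all below the untreated ones, though 24 h library 3 lay just under untreated library 1. The log2 fold change at 24 h was -0.65 ± 0.39 (unadjusted p 0.133), and -0.64 ± 0.16 without 5-day library 1 in the fit (unadjusted p 0.0023, adjusted p 0.316). Gene counts do not separate the spliced from the unspliced message. At 5 days the Xbp1 value was -0.10 ± 0.36 with library 1 and -0.59 ± 0.16 without it.

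The degradation genes lay nearer to 0, with a median of -0.23 at 24 h, 8 of 9 below 0 and Edem2 above it. At 5 days the median was 0.19 with all libraries and -0.11 without library 1. Herpud1, a scaffold of the HRD1 ubiquitin ligase complex, measured 36.8, 28.1 and 44.6 CPM untreated, 35.9, 41.7 and 29.4 CPM at 24 h and 50, 34.1, 41.6 and 49.9 CPM at 5 days. Its groups overlapped at both times, and its 24 h log2 fold change was -0.03 ± 0.22. Selenos, a membrane protein that recruits the ATPase VCP, measured 33.6, 38.4 and 40.8 CPM untreated, 25, 32.1 and 22.7 CPM at 24 h and 72.7, 32.4, 30.6 and 33.2 CPM at 5 days. The Selenos 24 h libraries, and 5-day libraries 2 to 4, were below all untreated ones.

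Edem1, a lectin of mannose trimming, measured 54.8, 57.4 and 60.1 CPM untreated, 53.3, 54.3 and 48.4 CPM at 24 h and 196, 52.6, 63.8 and 60.3 CPM at 5 days. Its 24 h libraries did not overlap the untreated ones, and the log2 fold change was -0.14 ± 0.46, or -0.14 ± 0.10 without 5-day library 1 in the fit. At 5 days it was 0.70 ± 0.43 with library 1 and 0.04 ± 0.10 without it. Derl3, a derlin of the retrotranslocation step, measured 1.05, 3.67 and 2.96 CPM untreated, 2.42, 1.75 and 1.92 CPM at 24 h and 2.84, 2.93, 3.44 and 2.49 CPM at 5 days. These Derl3 values rest on 6 to 21 counts per library. Its groups overlapped the untreated ones at both times.

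Of the other degradation genes, Derl1 had means of 72.8 ± 3.35 CPM (SD) at 24 h and 85.7 ± 1.7 CPM untreated, and Derl2 38.0 ± 1.58 and 45.2 ± 1.93 CPM, both with no overlap. The adaptor Sel1l had means of 95.1 and 114 CPM, and the ligase Syvn1 52.4 and 56.6 CPM, with overlap. Edem2, a relative of Edem1, had means of 42.4 CPM at 24 h and 38.1 CPM untreated, with every 24 h library above every untreated one.

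The 4 channel genes had a median log2 fold change of -0.11 at 24 h, -0.08 at 5 days and -0.14 at 5 days without library 1. Sec61a1, the pore subunit, had means of 183 ± 21.0 CPM (SD) at 24 h and 197 ± 17.9 CPM untreated. Sec61b had means of 44.8 and 42.7 CPM. The translocon-associated genes Ssr1 and Ssr2 had means of 174 and 120 CPM at 24 h and 200 and 130 CPM untreated. Only Ssr1 among these 4 had no overlap between the 24 h and untreated libraries, and exons of Ssr2 share 12.8% of their bases with an opposite-strand gene listed at 0.

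Much of the difference from untreated tumours lay in untreated libraries 2 and 3. For 18 of 33 genes (54.5%) these 2 libraries were the highest of the 9 libraries left without 5-day library 1, against 4.61% of all genes tested. Untreated library 1 was the lowest of its group for 27 of 33 genes (81.8%), against 33.6% of all genes. It lay inside the range of the 24 h libraries for 15 genes, above it for 14 and below it for 4. In 5-day library 1, 22 of 33 genes (66.7%) had their highest value of all 10 libraries, against 37.8% of all genes, and 0 had their lowest, against 38.1%.

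**Figure D4:**
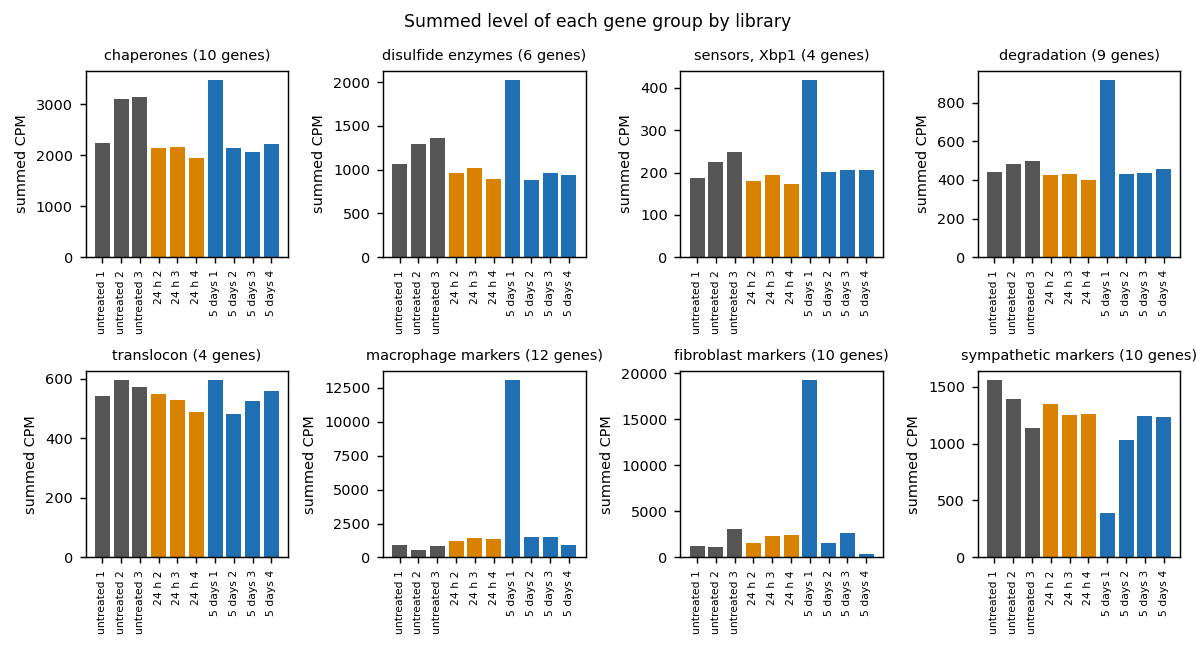
Summed CPM of each role group of the 33 genes and of 3 marker lists in each library (bars from 0; untreated grey, 24 h orange, 5 days blue). The chaperones reach 3110 and 3150 CPM in untreated libraries 2 and 3 and 2250 CPM in untreated library 1, and 5-day library 1 has the highest macrophage (13100 CPM) and fibroblast (19300 CPM) sums and the lowest sympathetic sum (389 CPM).

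Markers of other cells moved with some of these values. Macrophage markers summed to 552 to 937 CPM in untreated libraries and 1190 to 1450 CPM at 24 h, with 10 of 12 markers at higher means at 24 h. Sympathetic markers summed to 1140 to 1560 CPM untreated and 1250 to 1350 CPM at 24 h. Among genes of secretory cells, the plasma cell markers other than Xbp1 summed to 74.4 to 79.8 CPM untreated and 67.3 to 84.9 CPM at 24 h, nearly all of it from Sdc1. At 5 days they summed to 124 CPM in library 1 and 75.3 to 93.6 CPM in the others. In 5-day library 1, Sdc1 measured 95.8 CPM, Prdm1 15.1 CPM, Irf4 8.29 CPM and Jchain 3.27 CPM, each its highest value of all libraries. B cell markers summed to 50.2 CPM in that library, against 0.698 to 3.83 CPM elsewhere, and among them Ms4a1 was listed at 0 in every library. Pancreatic acinar markers summed to 40.3 CPM in untreated library 1, where Ctrb1 measured 11.2 CPM and Pnlip 8.75 CPM, each under 1 CPM in every other library. Their sum of 20.3 CPM in 5-day library 1 came from Cela1 alone, and Cela2a was listed at 0 in every library. Adrenal cortex markers summed to 1620 CPM and hepatocyte markers to 335 CPM in 5-day library 2, against at most 95.8 and 12.2 CPM in the others. Of the skeletal muscle genes, the combined level was 424 CPM for the second 5-day tumour and 154 CPM for the fourth (at most 7.23 CPM elsewhere), and adipocyte markers to 1500 CPM in 5-day library 2. The 5-day values without library 1 rest on these libraries. Fibroblast markers summed to 3130 CPM in untreated library 3, against 1130 and 1250 CPM in the other untreated libraries. The part of these cells in the levels of the 33 genes was not tested.

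Between 24 h and 5 days the values again turned on 5-day library 1. With all libraries 29 of 33 genes were above 0 and 4 below (background 52.8% and 47.2%), with a median of 0.30 against 0.03 over all genes. Without it, 19 were above and 14 below (background 49.5% and 50.5%), and the median was 0.01. By edgeR 0 of 33 and 0 of 14956 genes (0.0%) were called, DESeq2 called 3 genes and none of the 33, and at an unadjusted p under 0.05 the count was 0 of 33 in both directions (background 2.34% lower and 3.96% higher). Eif2ak3, Derl1 and Derl3 had every 5-day library above every 24 h library (background 3.32%), and 0 genes had the reverse (4.35%). Eif2ak3 had a log2 fold change of 0.28 ± 0.13 (unadjusted p 0.0614), and 0.32 ± 0.12 without library 1 (unadjusted p 0.023, adjusted p 0.602). Without library 1, Eif2ak3 was the 1 gene of 33 at an unadjusted p under 0.05 in the higher direction (background 3.67%), with 0 in the lower direction (4.09%). The same 3 genes then had every 5-day library above every 24 h library (background 5.25%), and Syvn1 and Edem2 had every one below (6.68%). For Hspa5 the 5-day value against 24 h was 0.38 ± 0.30 with library 1 and 0.06 ± 0.18 without it.

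Lower means at 24 h were seen both in genes with and in genes without the printed elements. The 11 genes with ERSE or ERSE-II all had fitted changes below 0, with a median of -0.33 and a range from -0.77 (Dnajc3) to -0.03 (Herpud1), and 3 of 11 had no overlap (background 51.5% below 0 and 6.69% without overlap). Of the 16 genes whose window held neither, 12 were below 0, with a median of -0.23, and 8 of 16 had no overlap, among them Sdf2l1, Pdia3 and Xbp1. Outside the 33 genes, 38 others carry ERSE or ERSE-II in a window, and 15 of them passed the filter. Of these 15, 7 were below 0 and 8 above at 24 h, with a median of 0.08. At 5 days with all libraries the medians were -0.11 for the 11 genes, 0.14 for the 16 and -0.08 for the 15 others. Without library 1 they were -0.37, -0.20 and -0.10 (14 others tested in that fit), so the sign for the 16 genes turned on that library. The difference between these groups of genes was not tested.

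Other genes of the same pathways, from lists that hold none of the 33, had medians nearer to that of all genes at 24 h. Of 28 tested folding factors, 20 were below 0 with a median of -0.07. Of 24 factors of translocation and glycan transfer, 20 were below 0 with a median of -0.06. That share of 83.3% was close to the 84.8% of the 33 genes (background 51.5% for all of these lists). Of 18 degradation factors, 11 were below 0 with a median of -0.03, and of 13 other sensors and membrane factors, 8 were, with a median of -0.05. Every 24 h library lay below every untreated one for 12.5% of the translocation factors, 11.1% of the degradation factors, 7.14% of the folding factors and 0 of the 13 (background 6.69%). Every one lay above for 0, 0, 1 and 1 genes of the same lists (background 7.11%). In these lists 0 genes were called. Ufd1, a partner of VCP in extraction from the membrane, had the 1 unadjusted p under 0.05 (background 0.615% lower and 1.14% higher). Its means were 67.0 CPM at 24 h and 81.7 CPM untreated. At 5 days without library 1, 25 of the 28 folding factors and 22 of the 24 translocation factors were below 0, with medians of -0.16 and -0.23 (background 50.5% below 0). With all libraries 9 of the 28 and 16 of the 24 were below 0, with medians of 0.07 and -0.03, so the folding factors lay on the other side of 0. Kdelr2, a receptor that returns ER proteins, measured 98.4, 112 and 110 CPM untreated and 115, 71.5, 75.4 and 86.6 CPM at 5 days. Its log2 fold change was -0.29 ± 0.16 with all libraries (unadjusted p 0.104, adjusted p 0.538) and -0.46 ± 0.09 without library 1 (unadjusted p 0.000481, adjusted p 0.243).

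The PERK and ATF4 branch had medians above 0. Of its 14 tested genes, 11 were above 0 at 24 h (background 48.5%), with a median of 0.08. That median lay inside the interquartile range of all genes tested, -0.15 to 0.16, and only Sesn2 had an unadjusted p under 0.05 by edgeR. At 5 days 12 were above 0 (background 50.6%) with a median of 0.70, against an interquartile range of -0.19 to 0.40. Without library 1, 12 were above 0 (background 49.5%) with a median of 0.38, against -0.14 to 0.16. None was called. Sesn2, a stress sestrin that ATF4 and p53 are known to induce, measured 7.0, 6.29 and 6.1 CPM untreated, 26.9, 19.2 and 28.4 CPM at 24 h and 48.2, 24.3, 9.12 and 20.4 CPM at 5 days. Every treated library was above every untreated one. Its log2 fold change was 1.94 ± 0.51 at 24 h (unadjusted p 0.00387, adjusted p 1.0) and 1.98 ± 0.49 at 5 days with all libraries. Without library 1 no gene of the 14 had a 5-day log2 fold change above 1.47, so the 5-day value of Sesn2 was smaller there. Ddit3, the factor CHOP downstream of ATF4, measured 8.58, 9.78 and 11.8 CPM untreated, 13.3, 13.3 and 13.9 CPM at 24 h and 29.2, 15, 11 and 10.3 CPM at 5 days. Its 24 h libraries lay above the untreated ones and its 5-day libraries overlapped them. Vldlr, a lipoprotein receptor, measured 15.2, 12.6 and 18.6 CPM untreated and 70.3, 29.3, 22.2 and 33.1 CPM at 5 days, with a log2 fold change of 1.32 ± 0.39, or 0.86 ± 0.21 without library 1. The pseudokinase gene Trib3 measured 1.22 to 3.5 CPM untreated and 3.27 to 10.9 CPM at 5 days, so its groups overlapped.

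**Figure D5:**
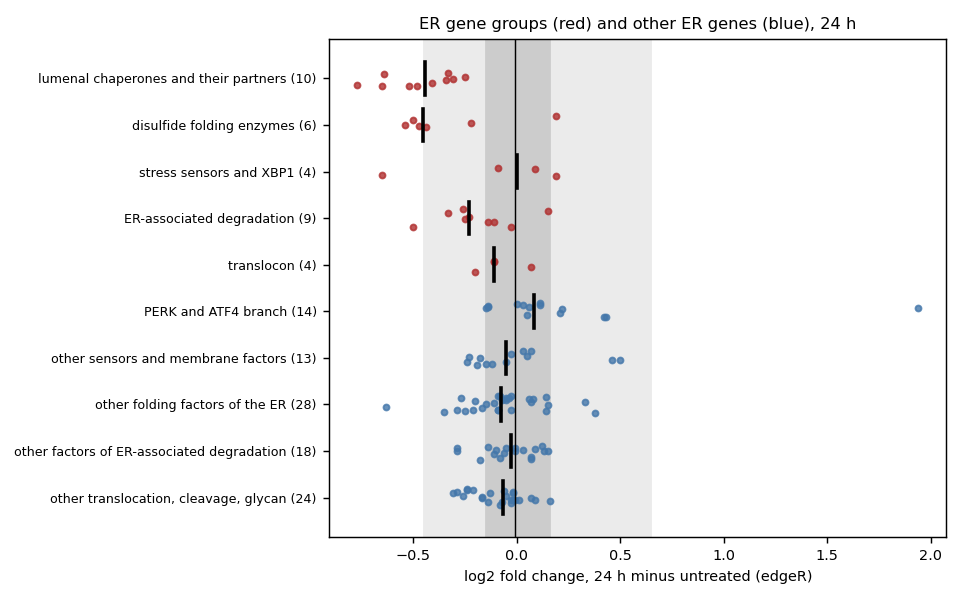
Log2 fold change at 24 h against untreated tumours (edgeR, all libraries) for each tested gene of the 5 role groups of the 33 genes (red) and of 5 lists of other genes of the same pathways (blue), with each list's median (black bar), and with the interquartile range (dark band) and the 5th to 95th percentile (light band) of all genes tested. Chaperones and disulfide enzymes have medians of -0.45 and the degradation genes of the 33 one of -0.23, the other 7 lists have medians between -0.11 and 0.08, and Sesn2 lies alone on the right at 1.94.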

How the data were processed

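The data are gene counts of 10 libraries from sequencing of polyadenylated RNA of flash-frozen mouse tumours. Whole-number counts per Ensembl gene, 1 file per library, were used as deposited by the authors. The submitters' processing notes name mm10 as the build, and list TopHat2 2.1.1, HISAT2 and edgeR without their roles. The sources used here do not give the read counter, its annotation or its strand setting.

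Gene symbols and coordinates came from GENCODE release M21 for 54409 of 54446 identifiers. Counts were fitted in R 4.3.3 with edgeR 4.0.16: filterByExpr (minimum count 10, minimum total 15), TMM scaling (factor 0.812 for 5-day library 1, 1.001 to 1.039 for the others), 1 mean per group over all 10 libraries, and the robust quasi-likelihood F test, with Benjamini-Hochberg adjustment over all genes tested. Genes with an adjusted p under 0.05 were called. The standard error of a log2 fold change was derived from the F statistic. At this depth 3 counts equal 0.516 to 0.655 CPM, which covers counting error only. The fitting steps were tested on counts simulated with decreases larger than any of the genes described here had at 24 h. How often decreases of the size seen here would be called was not tested.

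Alternatives were DESeq2 1.42.0, its size factors, no filter, a mean of at least 5 CPM, a fit of the 2 groups compared, the replicate number as a block, limma 3.58.1 voom with library weights, each library left out, and both 5-day libraries 1 and 2 left out. The 33 genes, the other lists and the alternatives were chosen with earlier results of these data known. Values per library are given for 16 genes fixed by name (Hspa5, Hsp90b1, Calr, Pdia4, Sdf2l1, Dnajb9, Hyou1, Creld2, Manf, Xbp1, Ern1, Atf6, Eif2ak3, Herpud1, Derl3 and Ero1l) and for the 4 of the 33 with the smallest unadjusted p in each comparison. Of each list of other genes, those named are among the 2 with the smallest unadjusted p in a comparison. Exons of 11 of the 33 genes overlap another annotated gene, 2 of them (Hsp90b1 and Ssr2) over more than 10% of their bases. Figures used matplotlib 3.10.9 in Python 3.11.15.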

Additional observations from a re-analysis of the deposited data

Results flagged for a closer look

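In the 5-day group, 16 of 33 genes had library 1, and 1 further gene had library 4, set apart from the other 3 by more than Dixon's 95% critical value for 4 libraries. In each of these genes that library held the highest value. For library 1 the share was 48.5% of the 33 genes, against 17.8% of all genes tested. Chance alone sets a library apart in about 1 in 20 groups. Among the genes with values given per library, these were Hspa5 at 925 CPM, Calr at 882 CPM, Dnajb9 at 62.2 CPM, Sdf2l1 at 64.1 CPM, Pdia4 at 206 CPM, Xbp1 at 199 CPM, Edem1 at 196 CPM and Selenos at 72.7 CPM in 5-day library 1. The exception was Hyou1, with its highest value of 214 CPM in 5-day library 4. Macrophage, fibroblast and adipocyte markers were also highest in 5-day library 1, at 13100, 19300 and 11900 CPM, and their part in these values was not tested.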

How the results depend on the processing

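Under all 18 alternative settings the number of the 33 genes called was 0 in each comparison, and the smallest adjusted p was 0.105. Genes called over the whole table at 24 h numbered 7 with only the 2 groups compared, 2 without 5-day replicate 1 and 3 without 5-day libraries 1 and 2, against 0. DESeq2 called 21 genes at 5 days against untreated and 3 against 24 h, and 2 were called at 5 days against 24 h without 5-day libraries 1 and 2. Leaving out 1 library gave 0 to 2 genes called at 24 h, and medians of the 33 genes from -0.36 to -0.21 at 24 h, from -0.24 to 0.05 at 5 days and from 0.01 to 0.41 for 5 days against 24 h. Values of single genes were compared under all settings only for the 18 of the 33 genes with values given per library. Of these values, 929 kept their sign and 40 changed it, and the cause was not tested. At 24 h the ranges of these 18 genes with 1 library left out that cross 0 were -0.7 to 0.02 for Derl3, -0.2 to 0.02 for Eif2ak3 and -0.18 to 0.14 for Herpud1. At 5 days they were -0.19 to 0.54 for Derl3, -0.29 to 0.02 for Hsp90b1, -0.37 to 0.05 for Calr, -0.59 to 0.05 for Xbp1, -0.35 to 0.61 for Dnajb9 and -0.23 to 0.29 for Selenos. For 5 days against 24 h they were -0.04 to 0.39 for Calr, -0.17 to 0.45 for Pdia4, -0.1 to 0.28 for Sdf2l1, -0.01 to 0.98 for Dnajb9 and -0.08 to 0.11 for Manf. At 5 days against untreated, Dnajb9 was -0.35 and Selenos -0.25 with limma voom weights, and -0.35 and -0.24 without 5-day libraries 1 and 2. For 5 days against 24 h, voom weights gave Calr -0.01, Pdia4 -0.2, Sdf2l1 -0.09 and Manf 0.02, and leaving out libraries 1 and 2 gave Calr -0.07, Pdia4 -0.24, Sdf2l1 -0.05, Dnajb9 -0.01 and Manf 0.05. Manf was 0.0 with DESeq2 and with its size factors.

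Whether replicate numbers pair the libraries cannot be settled from these few correlations of deviations from group means. For same-numbered libraries they ran from -0.388 to 0.248, and for differently numbered libraries from -0.549 to 0.486. Between untreated and 24 h libraries the same-numbered pairs had the highest values, 0.206 for number 2 and 0.248 for number 3. With the replicate number as a block, 0 genes were called in each comparison, and the median of the 33 genes was -0.17 at 24 h, -0.05 at 5 days and 0.16 for 5 days against 24 h. Under the block Herpud1 was 0.04 and Edem1 0.17 at 24 h, and Manf was 0.03 for 5 days against 24 h.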

Other observations

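Eif2ak2 encodes a kinase that senses double-stranded RNA and, like PERK, phosphorylates the translation factor eIF2 alpha. It measured 11.2, 11.3 and 12 CPM in untreated libraries 1 to 3, 14.2, 16.6 and 16.9 CPM at 24 h, and 109, 18.4, 21.2 and 20.6 CPM in 5-day libraries 1 to 4. Every treated library was above every untreated one, and every 5-day library was above every 24 h library. The log2 fold change at 5 days was 1.87 ± 0.64 (unadjusted p 0.0169, adjusted p 0.538 by edgeR) with all libraries and 0.80 ± 0.15 (unadjusted p 0.000248, adjusted p 0.243) without 5-day library 1.

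Srprb, the membrane anchor of the signal recognition particle receptor, measured 35.4, 41.2 and 37.3 CPM untreated, 34, 41 and 37.5 CPM at 24 h, and 27.7, 30.5, 26.2 and 33.2 CPM at 5 days. All 4 of the 5-day libraries, library 1 included, were below all of the other 6. The log2 fold change at 5 days against untreated was -0.37 ± 0.13 (unadjusted p 0.0216, adjusted p 0.538). Prkcsh, the regulatory subunit of the glucosidase that trims glycans in the ER, measured 99.4, 98.1 and 112 CPM untreated, 116, 109 and 118 CPM at 24 h, and 122, 83.9, 85.5 and 90.5 CPM at 5 days. Without 5-day library 1, edgeR gave Prkcsh a log2 fold change at 5 days against 24 h of -0.41 ± 0.09 (unadjusted p 0.000632, adjusted p 0.602), against -0.26 ± 0.14 with it (unadjusted p 0.102, adjusted p 0.581).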
